A study of Mus musculus with 26 samples.

Results

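The microRNA mir-218 is made from 2 hairpin precursors, mmu-mir-218-1 and mmu-mir-218-2, which lie in introns of the paralogous genes Slit2 and Slit3. They are the 2 entries of these names among 1054 miRNA entries of a small RNA count table, and were chosen by name, not by their values. Both were among the 463 miRNA entries with enough counts to be tested. The table covers 26 libraries of tissue dissected from dorsal (dHC) or ventral (vHC) hippocampus in C57BL/6J male mice of 2–3 months. Control mice stayed in the homecage, and stressed mice swam for 6 min in water of 18 °C and their tissue was taken 45 mins after the swim began. There were 8 control vHC, 6 swim vHC, 6 control dHC and 6 swim dHC libraries, and the tissue of both hemispheres was used. The labels give each library 1 of 3 block dates, here called block 1, 2 and 3, with 10, 8 and 8 libraries, and every block holds all 4 groups. Nothing in the labels says whether a dHC and a vHC library came from the same mouse, and p-values measure the spread between libraries. Hippocampal tissue is a mixture of neurons, glia and other cells, so that a lower level in a cell type and fewer cells of that type cannot be told apart.

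MicroRNAs are short RNAs cut from a hairpin. One arm is loaded into an Argonaute protein and guides it to messenger RNAs, mostly by pairing through the seed, the bases near the 5′ end, and the targets are then translated less or degraded. The Slit proteins are secreted ligands that steer axons and migrating cells through Robo receptors. Because both precursors are transcribed within Slit genes, mir-218 is a known case of an intronic miRNA with targets in the pathway of its hosts, Robo1 among them. It is enriched in the nervous system, with known roles in motor neurons and hippocampal neurons. Messenger RNAs of the Slit and Robo genes are not analysed here.

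By RefSeq on GRCm38.p6, Mir218-1 spans chr5:48223942-48224051 on the plus strand. By the GENCODE annotation of the same build, it lies within Slit2 (chr5:47983138-48307733, plus strand), in an intron of its coding transcripts that is intron 14 in one of them and runs there from 48220081 to 48224652. In the other coding transcripts it is intron 15 or 16. Mir218-2 spans chr11:35616816-35616925 on the plus strand, in intron 14 (35612437 to 35622007) of the coding transcript of Slit3 (chr11:35121224-35708507, plus strand). Both precursors therefore lie in introns and in the sense of their host. The mature arms are shown because they decide which reads can be told apart between the copies. Bases 2 to 8, the seed, are in capitals:
mmu-miR-218-5p, the same from both copies: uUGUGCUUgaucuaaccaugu
mmu-miR-218-1-3p: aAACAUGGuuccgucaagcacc
mmu-miR-218-2-3p: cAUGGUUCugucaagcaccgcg

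The 5p arm has 21 bases and is identical in the 2 precursors, so a read of this arm alone cannot be assigned to Slit2 or Slit3. The 3p arms have 22 bases each and start 3 bases apart in the hairpin, and therefore differ in their seeds. Over the 19 bases they share in the hairpin, 18 are equal, and the substitution is C12U, counted from the 5′ end of mmu-miR-218-1-3p. Of 1679 mature names in RefSeq, mmu-miR-7002-3p is the other name with the 5p seed, and its precursor entry, mmu-mir-7002, had 2 counts in all libraries together. The seed of mmu-miR-218-1-3p is shared with mmu-miR-496b, and that of mmu-miR-218-2-3p with no other name in the table. The hairpins are shown to place the arms, here in capitals:
mmu-mir-218-1: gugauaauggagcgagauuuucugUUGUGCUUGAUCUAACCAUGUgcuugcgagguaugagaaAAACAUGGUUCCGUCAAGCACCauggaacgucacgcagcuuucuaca
mmu-mir-218-2: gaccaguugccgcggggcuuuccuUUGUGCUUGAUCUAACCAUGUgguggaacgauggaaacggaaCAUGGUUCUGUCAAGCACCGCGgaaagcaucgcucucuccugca

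The hairpins have 110 bases each and are identical at 71 positions (64.5%). Their longest common run has 22 bases, from base 25 to base 46 of both, and is the 5p arm with 1 base after it. The next longest run has 10 bases. With a minimum read length of 18 bases, this was the 1 shared run in which a read without mismatches could belong to both.

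Mir-218 was an abundant miRNA of the hippocampus, and the 2 entries were nearly equal. The mean share of all miRNA counts was 1.0% for mmu-mir-218-2 and 0.958% for mmu-mir-218-1, which placed them at rank 31 and 32 of 1054 entries. With the copies of each miRNA summed, mir-218 made up 1.96% of miRNA counts and ranked 12 of 965, between rank 8 and rank 15 in single libraries. These are shares of counts, and the efficiency with which each miRNA is cloned was not measured. Total miRNA counts were between 465387 (control dHC library 24) and 4819724 (swim dHC library 28). The 95% Wilson interval of the share in library 24 was 1.98% to 2.07%, and the intervals of the other libraries were narrower. Such intervals cover counting error only.

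mmu-mir-218-2 lay above mmu-mir-218-1 in 26 of 26 libraries, by 122 to 2137 counts. This excess was 1.30% to 2.80% of the sum of both copies. The sum and the difference of the entries were whole numbers in 26 of 26 libraries, within a tolerance of 1e-06, and both entries ended in one half-count in 11. Values of this form are what equal division of a shared sequence between its entries gives. The log2 ratio of mmu-mir-218-1 to mmu-mir-218-2 within a library was between −0.08 and −0.04. The level of one copy is thus nearly a copy of the other (Spearman rho 0.997 over 26 libraries), and the 2 entries do not measure Slit2-derived and Slit3-derived mir-218 separately. Agreement between the entries in the values that follow adds no evidence.

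The small remainder that differs between the entries was not shown to move with stress or region. The difference in log2 ratio between swim and control was 0.0019 in vHC (two-sided exact permutation test, p = 0.669) and −0.0092 in dHC (exact p = 0.212). Between dHC and vHC it was 0.0055 in control mice (exact p = 0.268) and −0.0056 after the swim (exact p = 0.396). Adjusted over these 4 comparisons, the exact permutation p-values were 0.528 to 0.669. Other miRNAs with copies in introns of paralogous hosts had both smaller and larger differences. The median log2 ratio of copy 1 to copy 2 was −0.0017 for mir-26a (Ctdspl and Ctdsp2), −0.0090 for mir-103 (Pank3 and Pank2), −0.06 for mir-218 and 0.33 for mir-128 (R3hdm1 and Arpp21). Of 36 pairs of tested copies, 30 had a median within 0.1 of 0.

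**Figure D1:**
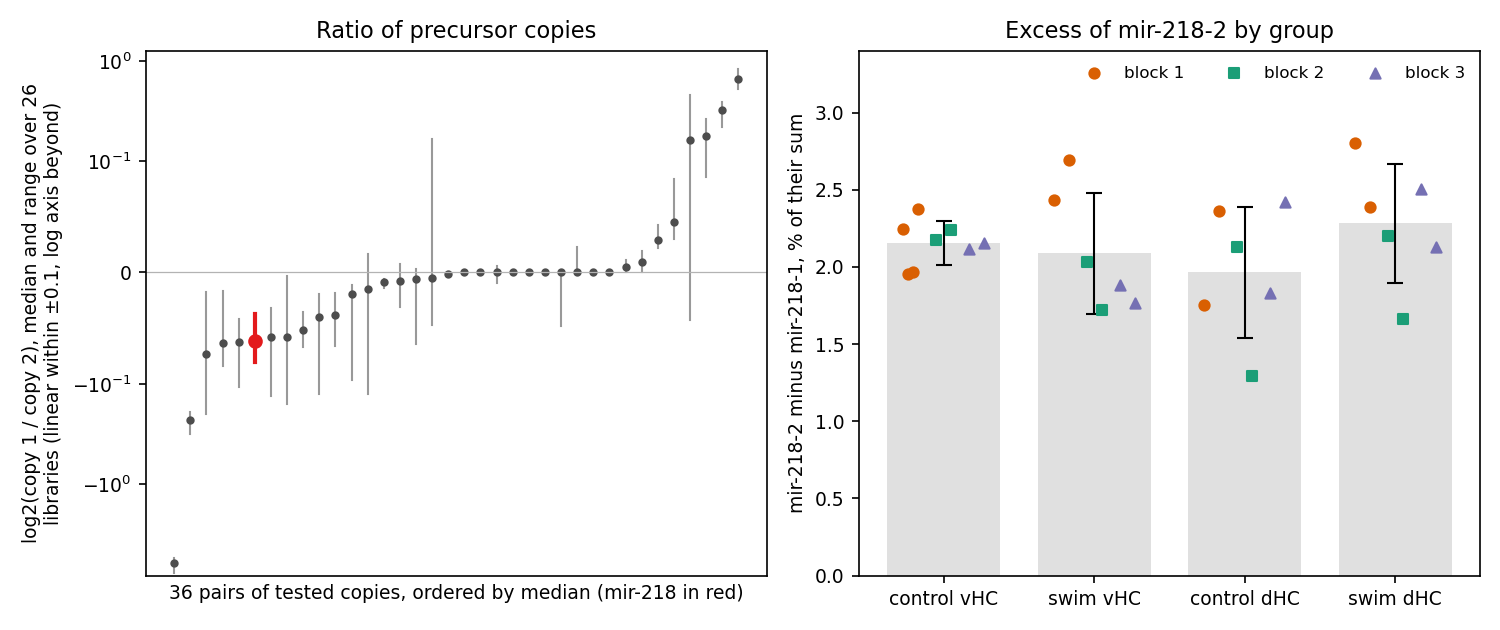
Left, log2 ratio of copy 1 to copy 2 for 36 pairs of tested precursor copies, with the median as a point and the range over 26 libraries as a line; the axis is linear within ±0.1 and logarithmic beyond. Right, excess of mmu-mir-218-2 over mmu-mir-218-1 in % of their sum, by group, with single libraries as points, means as bars and SD as error bars. The mir-218 pair, in red, lies just under 0, and the excess is above 0 in every library and overlaps between all groups.

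The swim did not move mir-218 detectably in either region. Levels are given as normalized CPM, the miRNA count of an entry relative to the library's total, scaled with the trimmed mean of M-values (TMM). In vHC, mmu-mir-218-1 had a lowest, median and highest level of 8571, 9758 and 12076 in control libraries and of 8427, 10108 and 11911 in swim libraries. mmu-mir-218-2 had 8949, 10203 and 12558 in control vHC and 8777, 10485 and 12570 in swim vHC. The ranges of the groups overlapped almost fully. The means were 9839 ± 1074 (SD, n = 8) and 10124 ± 1575 (SD, n = 6) for mmu-mir-218-1, and 10270 ± 1102 and 10564 ± 1711 for mmu-mir-218-2.

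In the fit with 2 surrogate variables, the log2 difference between swim and control in vHC was 0.07 for both copies (SE 0.10). Benjamini-Hochberg adjusted p-values of edgeR's quasi-likelihood test were 0.785 and 0.801 for mmu-mir-218-1 and mmu-mir-218-2. The 95% confidence intervals were −0.13 to 0.28 and −0.13 to 0.27. No entry passed an adjusted p of 0.05 in this comparison, so the background was 0% of 463 entries, and 34 had an unadjusted p under 0.05. The intervals give the sizes of change that these libraries leave possible.

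In normalized CPM, control libraries spread more widely in dHC than in vHC, with SDs of 2105 and 1074 for mmu-mir-218-1. After the swim the SDs were close, at 1595 in dHC and 1575 in vHC. The share of both copies in miRNA counts did not spread more widely in dHC. Its SD, in percentage points, was 0.151 in control dHC and 0.196 in control vHC. After the swim it was 0.235 in dHC and 0.257 in vHC. In dHC, mmu-mir-218-1 had a lowest, median and highest level of 7275, 9039 and 13336 normalized CPM in control libraries and of 7694, 8702 and 11682 after the swim. mmu-mir-218-2 had 7592, 9421 and 13686 in control dHC and 8029, 9044 and 12355 in swim dHC. The control group held both the lowest and the highest library of the region, and the highest was library 24, which had the fewest counts.

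The log2 difference between swim and control in dHC was 0.02 (SE 0.11) for mmu-mir-218-1 and 0.03 (SE 0.11) for mmu-mir-218-2. The edgeR adjusted p was 0.999 for both, with 95% confidence intervals of −0.20 to 0.24 and −0.19 to 0.25. Of all entries, 0% were called and 17 had an unadjusted p under 0.05. The swim difference was not shown to differ between the regions: the interaction was −0.06 (SE 0.14, edgeR adjusted p = 0.954) for mmu-mir-218-1 and −0.04 (SE 0.14, adjusted p = 0.959) for mmu-mir-218-2. The stress and interaction coefficients tested together gave an edgeR adjusted p of 0.933 for both copies. These tests also called 0% of entries, with 23 and 16 at an unadjusted p under 0.05.

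Because the split between the copies is mostly arithmetic, the sum of both was also tested. In a fit of 401 miRNAs with their copies summed, the log2 difference between swim and control was 0.09 (SE 0.09, edgeR adjusted p = 0.713) in vHC and −0.04 (SE 0.10, adjusted p = 0.997) in dHC. Within blocks 1, 2 and 3 the summed difference in mean log2 level was 0.18, −0.11 and 0.12 in vHC. In dHC it was 0.29, −0.18 and −0.20. The sign therefore changed between blocks in both regions. Each of these differences compares 2 swim with 2 control libraries, or with 4 in vHC of block 1. The 2 control dHC libraries of block 2 stood at 14867 and, in library 24, at 27022 summed normalized CPM. Exact permutation tests of the summed level, without covariates, gave two-sided p = 0.744 in vHC and p = 0.870 in dHC.

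**Figure D2:**
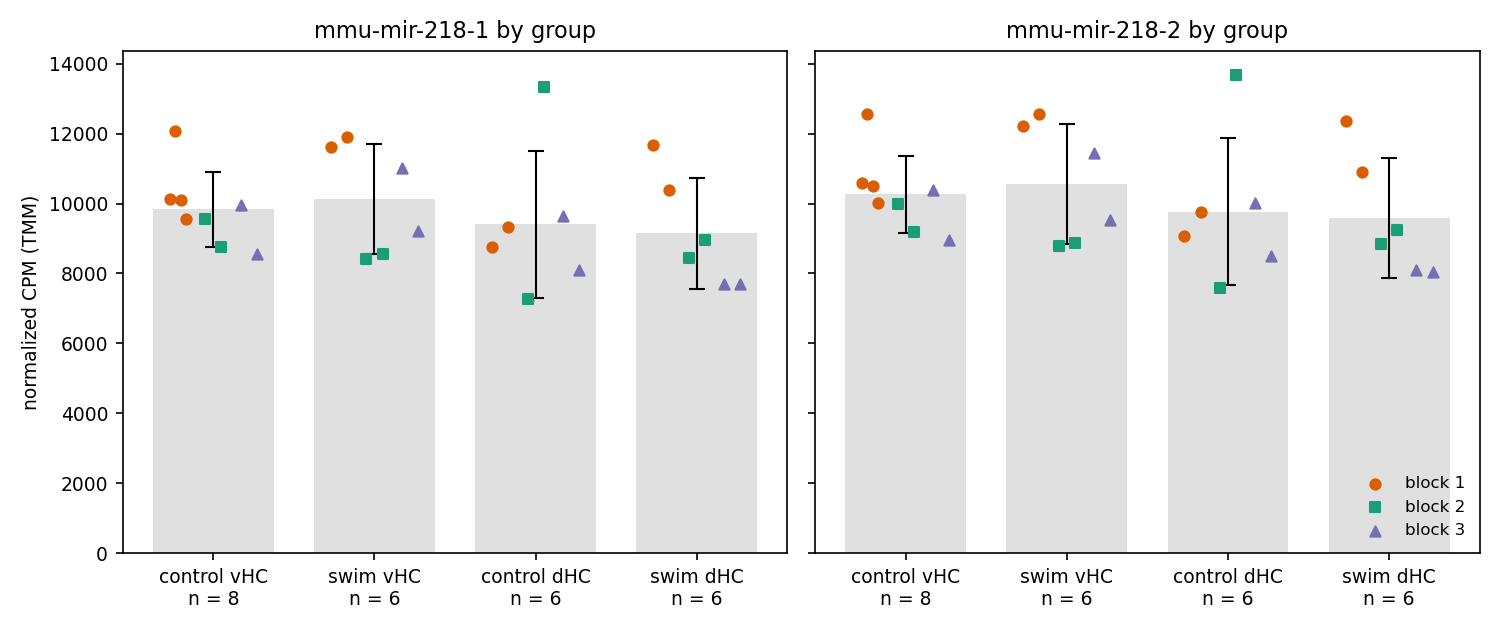
Level of mmu-mir-218-1 (left) and mmu-mir-218-2 (right) in normalized CPM, by group. Points are libraries, marked by block, bars are group means and error bars are SD; all 4 groups overlap, with means between 9146 and 10564.

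In the fit with block, mir-218 did not differ detectably between dHC and vHC, while many other miRNA entries did. In control mice the log2 difference of dHC against vHC was −0.02 (SE 0.12) for mmu-mir-218-1 and −0.03 (SE 0.11) for mmu-mir-218-2, in a fit with block as a covariate. The edgeR adjusted p-values were 0.927 and 0.912, and the 95% confidence intervals were −0.26 to 0.22 and −0.26 to 0.21. In this comparison 22.5% of entries were called, with 36 higher and 68 lower in dHC (66 and 64 when scaled with DESeq2 size factors). After the swim the difference was −0.15 (SE 0.12) for both copies, with edgeR adjusted p-values of 0.450 and 0.455 against a background of 20.3% called. For the summed copies it was 0.02 (SE 0.12, edgeR adjusted p = 0.923) in control mice and −0.12 (SE 0.12, adjusted p = 0.531) after the swim. Within blocks 1, 2 and 3 the summed difference was −0.21, 0.10 and −0.06 in control mice and −0.09, 0.04 and −0.38 after the swim. These also rest on 2 libraries per group and block, or on 4 in control vHC of block 1.

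Neighbouring library numbers, an odd vHC and the next even dHC library of the same stress group and block, formed 12 such couples, a grouping noticed after the data were seen. The labels do not say whether they share a mouse. The share of mir-218 was lower in the dHC library in 11 of 12 couples, with a mean log2 difference of −0.09 ± 0.12 (SD, n = 12). The exception was the couple with library 24, and without it the mean was −0.12. In swim couples the share was lower in 6 of 6, with a mean of −0.11 ± 0.06 (SD). In control couples it was lower in 5 of 6, with a mean of −0.07 ± 0.17 (SD). By normalized CPM, mir-218 was lower in dHC in 8 of 12 couples, with a mean of −0.11 ± 0.29. Fits with these couples as a block gave −0.05 and −0.06 in control mice and −0.14 for both copies after the swim, with edgeR adjusted p-values of 0.467 to 0.818. Without composition scaling, the couples gave −0.07 and −0.08 in control mice and −0.12 and −0.11 after the swim, with edgeR adjusted p-values of 0.348 to 0.577. The lower share in dHC was thus frequent among couples. The difference did not pass the test over all entries in control or in swim couples, which were tested separately. A test of all 12 couples together was not run.

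The covariates decided the regional call. With 2 surrogate variables in place of block, the dHC against vHC difference in control mice was 0.88 (SE 0.29) for mmu-mir-218-1 and 0.86 (SE 0.29) for mmu-mir-218-2, both with an edgeR adjusted p of 0.0343. After the swim it was 0.82 for both in that fit (edgeR adjusted p = 0.0527). That fit called 78 and 59 of 463 entries in the 2 comparisons. The second surrogate variable separated the regions, with values of 0.0928 to 0.308 in vHC and −0.289 to −0.104 in dHC. The median log2 difference of all entries in control mice was −0.22 in that fit, against 0.005 with block. The difference of 0.88 is not seen in the levels themselves: the summed copies stood at 20109 ± 2177 normalized CPM (SD, n = 8) in vHC of control mice and at 19178 ± 4213 (SD, n = 6) in their dHC. An exact permutation test of these summed levels gave p = 0.482, and p = 0.299 between the regions after the swim.

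The tissue was checked on lists of miRNAs known from the cell types it could hold. Of all 463 entries, 22.5% were called between regions in control mice, 20.3% between regions after the swim and 0% for the swim in either region. The neuron-enriched list, with mir-124, mir-9, mir-128 and mir-132 among its 14 tested entries, had 0 entries called between regions or with the swim. Its log2 differences of dHC against vHC ran from −0.31 to 0.64 in control mice and from −0.31 to 0.39 after the swim. Its summed level, given here as CPM without TMM scaling, was 192570 to 258003 over all libraries. None of its markers was at 0 throughout. In control mice, 3 of 3 oligodendrocyte entries (mir-219a-1, mir-219a-2 and mir-338) were higher in dHC, with a median log2 difference of 0.50. Of 9 entries known from choroid plexus and ciliated cells, 5 were higher and 3 lower in dHC, and 2 of 4 erythroid entries were lower. The 4 microglial and immune and the 3 endothelial and mural entries tested had 0 calls. The summed oligodendrocyte level, also as CPM without TMM scaling, was 3371 to 5014 in control vHC and 4611 to 7385 in control dHC. After the swim, the 3 oligodendrocyte entries were again higher in dHC, 2 choroid plexus and ciliated entries were higher and 3 lower, and 1 erythroid entry was lower. None of the listed entries was called for the swim. The part of these cell types in the level of mir-218 was not tested.

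**Figure D3:**
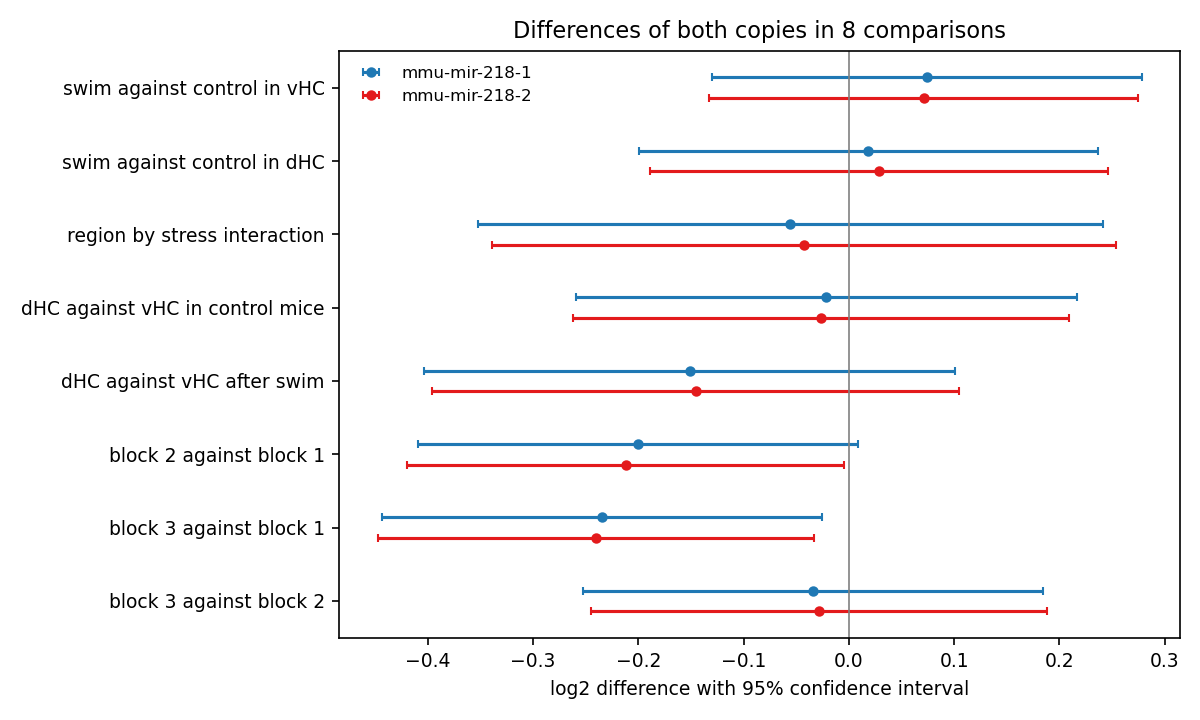
Log2 differences of mmu-mir-218-1 and mmu-mir-218-2 in 8 comparisons, as points with 95% confidence intervals. Stress and interaction values come from the fit with 2 surrogate variables, and region and block values from the fit with block. Intervals of the stress and region comparisons include 0, while those of block 3 against block 1, and of block 2 against block 1 for mmu-mir-218-2, do not.

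By its share of counts, mir-218 stood higher in block 1 than in the other blocks. The share of both copies summed was 2.16% ± 0.176 (SD, n = 10) in block 1, 1.82% ± 0.114 (n = 8) in block 2 and 1.83% ± 0.0944 (n = 8) in block 3. Block 1 libraries ran from 1.90% to 2.39%, block 2 libraries from 1.64% to 2.02% and block 3 libraries from 1.71% to 2.03%. In block 1, both swim vHC libraries (2.37% and 2.39%) and both swim dHC libraries (2.17% and 2.23%) lay above every library of blocks 2 and 3. So did control vHC libraries 7, 9 and 13 of block 1 (2.39%, 2.12% and 2.06%), while control vHC library 1 (1.98%) did not. The control dHC libraries of block 1, at 1.90% and 2.04%, lay within or just above the ranges of the other blocks.

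After TMM scaling this difference was at the edge of the test. The log2 difference of block 3 against block 1 was −0.23 (SE 0.10, edgeR adjusted p = 0.0564) for mmu-mir-218-1 and −0.24 (SE 0.10, adjusted p = 0.0482) for mmu-mir-218-2. Of all entries, 52.1% were called in this comparison. Block 2 against block 1 gave −0.20 (SE 0.10, edgeR adjusted p = 0.101) and −0.21 (SE 0.10, adjusted p = 0.0798), with 52.5% of entries called. Block 3 against block 2 gave −0.03 for both (edgeR adjusted p = 0.922), with 0% called and 51 entries at an unadjusted p under 0.05. The joint test over the 3 blocks had an edgeR adjusted p of 0.0909 for mmu-mir-218-1 and 0.0750 for mmu-mir-218-2, where 53.1% of entries were called. A difference between block 1 and the others was thus common among the miRNAs of this table.

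Without composition scaling, an alternative added after the data were seen, the block difference of mir-218 passed the joint test, with edgeR adjusted p-values of 0.00120 and 0.000825. There, block 2 against block 1 was −0.24 (SE 0.06) and block 3 against block 1 was −0.24 (SE 0.06) for mmu-mir-218-1. The sizes were close to those after TMM, and the standard errors smaller. Leaving out library 24 also gave a call, with edgeR adjusted p-values of 0.0287 and 0.0233, in which block 2 against block 1 was called for both copies and block 3 against block 1 for neither. For mmu-mir-218-1 and mmu-mir-218-2, block 2 against block 1 was then −0.25 and −0.26 (edgeR adjusted p = 0.0149 and 0.0122), and block 3 against block 1 was −0.17 and −0.18 (adjusted p = 0.0702 and 0.0605). The labels give each block as a date, and what differed between blocks was not tested.

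**Figure D4:**
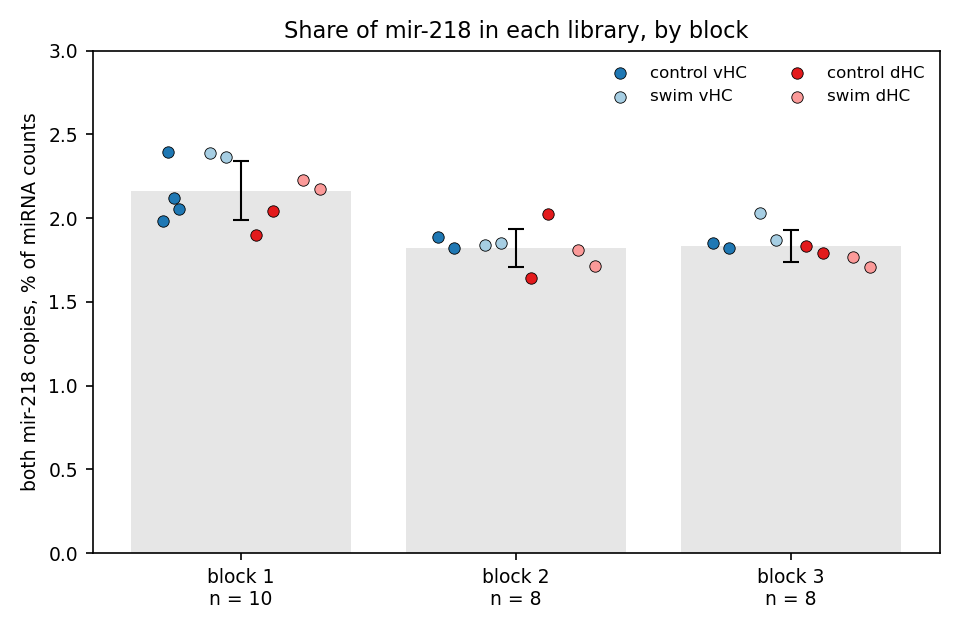
Share of both mir-218 copies in the miRNA counts of each library, in %, by block and coloured by group; bars are block means and error bars are SD. Block 1 has a mean of 2.16% and blocks 2 and 3 have means of 1.82% and 1.83%.

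After TMM scaling, the level of mir-218 fell with the depth of the library. The TMM factor, which divides the level, was 0.7492 in the library with the fewest counts and 1.1208 in that with the most. How the other tested entries as a whole moved with depth is not given here. Over 26 libraries, the log2 summed normalized CPM had a Pearson r of −0.613 with the log10 total miRNA count (permutation p = 0.00056, 0.00504 adjusted over 18 relations) and a Spearman rho of −0.619 (permutation p = 0.00098, 0.00954 adjusted). Without the 2 libraries farthest from the median depth, control dHC library 24 and swim dHC library 22, r was −0.569 (permutation p = 0.00377). Within dHC r was −0.789 (permutation p = 0.00328, 0.0148 adjusted) over 12 libraries, and within vHC −0.231 (permutation p = 0.421) over 14. The difference between the regions in r was not tested. Within blocks 1, 2 and 3 r was −0.421, −0.941 and −0.828.

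Over all libraries, the plain share of miRNA counts had r of −0.150 (permutation p = 0.470) and rho of −0.258 (permutation p = 0.201) with depth. Without the same 2 libraries its r was −0.273 (permutation p = 0.195). Within blocks 1, 2 and 3 its r was −0.111, −0.638 and −0.651, and its rho −0.333, −0.571 and −0.857. In block 3 the rho of the normalized level was also −0.857, so that within that block the share followed depth as closely by rank. Library 24 shows how the measures part. Its TMM factor was 0.7492, where those of the other libraries were 0.9049 to 1.1208. Its normalized level of 27022 CPM was the highest of all libraries, and its share of 2.02% was the highest of its own block, block 2, whose other libraries lay between 1.64% and 1.89%.

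**Figure D5:**
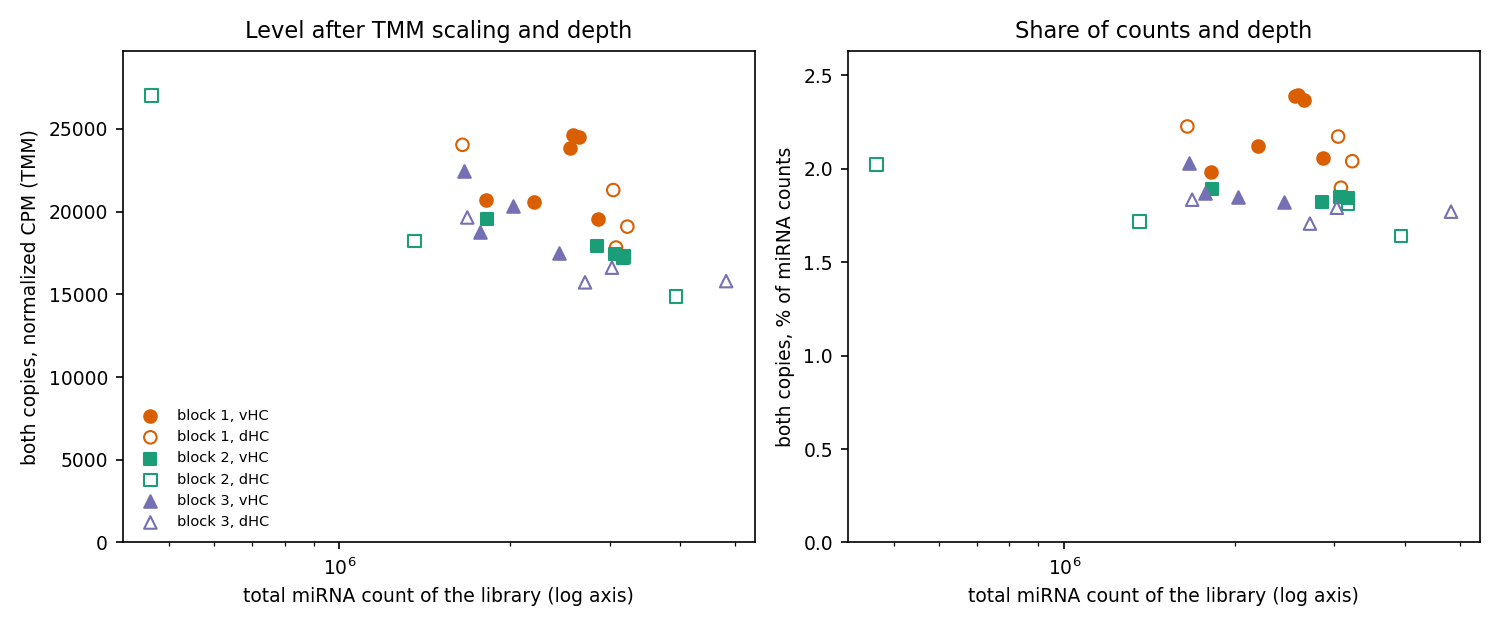
Summed level of both mir-218 copies against the total miRNA count of the library (log axis), as normalized CPM (left) and as % of miRNA counts (right). Shapes and colours mark blocks, filled points are vHC and open points dHC. The library with the fewest counts, control dHC library 24, is the highest on the left at 27022 and stands at 2.02% on the right.

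Among the other tested entries, mmu-mir-30d followed the summed level of mir-218 most closely over 26 libraries, with a Spearman rho of 0.805. The 3 copies of mir-9, a miRNA of neural progenitors and neurons, had rho of 0.751 each. mmu-mir-379, from an imprinted miRNA cluster, and mmu-mir-30a both had 0.744. The median over all tested entries was 0.0393. These values describe libraries that share blocks and scaling factors. The level of mir-218 had a rho of −0.619 with depth, mir-9 had −0.899, and mmu-mir-30d, mmu-mir-379 and mmu-mir-30a had −0.348, −0.198 and −0.261.

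Mir-218 varied less between libraries of a group than most tested entries, which were not matched to it for abundance. The coefficient of variation within groups averaged 16.6% for both copies, and 17.1% and 17.3% of the 463 entries had a lower one than mmu-mir-218-1 and mmu-mir-218-2. The median over all entries was 24.5%. The average covers unlike groups: mmu-mir-218-1 had a mean of 9839 ± 1074 (SD) in control vHC and of 9407 ± 2105 (SD) in control dHC. Control dHC includes library 24, at 13336. By the share of both copies in miRNA counts, the SD was instead smaller in control dHC, at 0.151 percentage points against 0.196 in control vHC.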

How the data were processed

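Small RNA libraries were made from total RNA with the Nextflex v3 kit. Adapters were removed with cutadapt, duplicates with the same insert and molecular tag were collapsed, and Sports 1.0 was used for quantification. The authors deposited expected counts for each small RNA entry, not normalized, and Sports divides a sequence that fits several entries between them. The length of the molecular tags is not given in the sources used here, and its effect on abundant sequences was not tested. The table does not separate 5p and 3p arms. All 26 columns were mapped to samples.

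The design had assumed whole counts. Because 29.5% of the values in the table were not whole, expected counts were rounded before edgeR 4.0.16 (R 4.3.3). Of 1054 miRNA entries, 463 passed filterByExpr (minimum count 10, minimum total 15, by the 4 groups). Library size was the summed miRNA count, between 465387 and 4819724, scaled by TMM. Quasi-likelihood tests used all 26 libraries. Stress was tested in a model of region, stress and interaction with 2 surrogate variables (sva 3.50.0). Region and block tests held block in place of surrogate variables. P-values were adjusted over 463 entries by Benjamini-Hochberg, with a threshold of 0.05. Exact permutation tests compared copy ratios and summed levels, and relations to depth used 100000 permutations. The procedure was also run on simulated counts with known changes. These had the same dispersion for all entries, no block effects and no counts divided between copies, so they do not probe those features. Alternatives were other scalings, no filter, DESeq2 1.42.0, unrounded counts, summed copies, depth as a covariate, other covariates, neighbouring library numbers as a block and leaving out each library. Named entries were the members, their sum and the 5 entries, ties included, most correlated with the sum. The members, lists and tests were chosen with earlier results of these data known.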

Additional observations from a re-analysis of the deposited data

Results flagged for a closer look

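In control vHC, library 7 of block 1 had a level of 12076 normalized CPM for mmu-mir-218-1 and of 12558 for mmu-mir-218-2, each the highest of its group of 8. Its gap to the nearest library exceeded Dixon's 95% critical value for 8 samples, which chance does in about 1 of 20 groups. The rule was applied to the lowest and the highest library of all 4 groups, for each entry and for their ratio. It pools the blocks. Since the copies share most of their counts, the 2 values are 1 observation.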

How the results depend on the processing

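Of 588 recomputed values, 10 changed their side of the threshold. Of the 444 that have a sign, 79 had the opposite sign to the reported value, and 2 of these passed the threshold. Of the 79, 39 were of dHC against vHC in control mice, whose reported values are near 0, and 32 of the swim in dHC, which went down to −0.07. With 2 surrogate variables in place of block, the dHC against vHC difference in control mice turned from −0.02 and −0.03 to 0.88 and 0.86, and after the swim it turned from −0.15 for both to 0.82 for both without passing the threshold. The joint block test had edgeR adjusted p-values of 0.000588 and 0.000497 for mmu-mir-218-1 and mmu-mir-218-2 with log2 depth as a covariate, and of 0.00120 and 0.000825 without composition scaling, where the reported values were 0.0909 and 0.0750. With DESeq2 size factors they were 0.362 and 0.324, and with TMMwsp 0.428 and 0.389. Without the 2 libraries farthest from the median depth, the Pearson r of the excess of mmu-mir-218-2 with depth fell from 0.540 to 0.177 over 26 libraries and from 0.643 to 0.0113 in dHC.

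Leaving out each library in turn moved the log2 difference between swim and control over 0.03 to 0.15 (mmu-mir-218-1) and 0.017 to 0.15 (mmu-mir-218-2) in vHC, and over −0.07 to 0.08 and −0.06 to 0.09 in dHC. The interaction ran from −0.17 to −0.0037 and from −0.16 to 0.0075. The region difference ran from −0.12 to 0.06 for both in control mice, and from −0.19 to −0.12 and −0.18 to −0.11 after the swim. The edgeR adjusted p of the joint block test ran from 0.0287 to 0.392 and from 0.0233 to 0.355, and passed without control dHC library 24. The difference in copy ratio ran from −0.00023 to 0.0054 and from −0.013 to −0.0053 for the swim in vHC and dHC, and from 0.0016 to 0.0081 and −0.0092 to −0.0026 between regions. The number of entries called between regions was 67 in control mice and 56 after the swim without block or surrogate variables, and 78 and 59 with 2 surrogate variables, against 104 and 94 with block. With neighbouring library numbers as a block, 108 and 122 entries were called. No analysis paired by mouse was possible because the groups share no library numbers and the labels tie no dHC library to a vHC library of the same mouse. The SE of the swim difference in vHC for mmu-mir-218-1 was 0.099, and 0.064 with log2 depth as a covariate. Without composition scaling, and without that covariate, it was 0.060. What set this spread was not tested.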

Other observations

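The excess of mmu-mir-218-2 over mmu-mir-218-1, in % of their sum, had a Pearson r of 0.540 with log10 depth over 26 libraries (permutation p = 0.00484, 0.0174 adjusted over 18 relations) and a Spearman rho of 0.318 (permutation p = 0.112, 0.288 adjusted). The pooled r fell to 0.177 (permutation p = 0.409) when libraries 22 and 24, both dHC libraries of block 2, were left out. Within blocks 1, 2 and 3 r was −0.307, 0.805 and 0.926. In block 2, r was −0.190 once libraries 22 and 24 were dropped. Block 3 holds neither of them, and its r had a permutation p of 0.000510 (0.00504 adjusted, n = 8). Its rho was 0.881 (permutation p = 0.00758, 0.0409 adjusted). Dropping the 2 libraries of block 3 with the most extreme depth gave r of 0.853 (permutation p = 0.0545).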
